A study of Homo sapiens with 9 samples.

Results

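DHRS2 and 9 other genes named for the dehydrogenase/reductase short-chain dehydrogenase family (DHRS1, DHRS3, DHRS4, DHRS7, DHRS7B, DHRS9, DHRS11, DHRS12 and DHRS13) were followed in human cells starved of zinc. They are 10 of the 57766 genes in the deposited expression table and were taken by gene symbol. DHRS2 was selected on its RPKM in these same libraries, for its very large difference between depleted medium and the others. Its values are therefore given as a description, with no test and no threshold, and only the other members are tested. Polyadenylated RNA came from HEK293 Freestyle cells, a single established human embryonic kidney line adapted to suspension culture. All cells carried the same background, with no genetic change named, and spent 36 h in their medium. The groups were Freestyle medium depleted of Zn(II) (depleted), depleted medium to which Zn(II) had been returned (repleted) and untreated Freestyle medium (full), with 3 libraries each and 9 in all. The labels call the libraries of a group biological triplicates without saying how the cultures were separated, so the p-values measure the spread between these libraries, which may be partly technical.

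Short-chain dehydrogenases bind NAD(H) or NADP(H) and oxidise alcohols or reduce carbonyl groups on steroids, retinoids, lipids and foreign compounds. DHRS2, also known as HEP27, is an NADPH-dependent reductase of dicarbonyl compounds found in mitochondria and nuclei. In cultured human cells it is known to be induced by histone deacetylase inhibitors, and its protein binds the ubiquitin ligase MDM2. Its closest measured relatives are DHRS4, a peroxisomal NADPH-dependent reductase of carbonyls and retinal, and the DHRS4 duplicate DHRS4L2.

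The DNA at the start of DHRS2 and of DHRS4 is shown because these 2 similar genes had opposite levels across the media. The sequences come from the RefSeq promoter table of build GRCh38.p14, cover 250 bases before and 50 bases after the start, and are both on the + strand. They lie at chr14:23629865-23630164 for DHRS2 and chr14:23953520-23953819 for DHRS4. Capitals mark TATAAA or its reverse complement TTTATA, and GGGCGG or its reverse complement CCGCCC, called a GC box.
DHRS2 promoter: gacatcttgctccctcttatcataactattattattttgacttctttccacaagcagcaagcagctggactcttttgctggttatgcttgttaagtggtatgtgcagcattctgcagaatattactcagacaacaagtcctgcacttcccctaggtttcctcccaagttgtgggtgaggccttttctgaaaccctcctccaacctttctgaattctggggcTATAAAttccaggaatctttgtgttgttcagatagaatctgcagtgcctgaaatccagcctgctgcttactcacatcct
DHRS4 promoter: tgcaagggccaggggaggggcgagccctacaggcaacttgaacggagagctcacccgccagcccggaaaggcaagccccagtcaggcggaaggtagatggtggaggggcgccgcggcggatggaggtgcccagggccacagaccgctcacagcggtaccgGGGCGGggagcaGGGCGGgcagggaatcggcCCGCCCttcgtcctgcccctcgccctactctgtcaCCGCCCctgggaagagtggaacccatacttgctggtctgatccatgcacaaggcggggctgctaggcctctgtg
The DHRS2 window held TATAAA beginning 29 bases before the start and no GC box. It held 0 CpG pairs, which was true of 3.96% of the 35116 promoters in the table, and its GC content was 44.0%. The DHRS4 window held 4 GC boxes and no TATAAA, with 20 CpG pairs and a GC content of 68.7%. Over all promoters the medians were 14 CpG pairs and 58.7% GC, TATAAA on either strand was in 11.5%, and a GC box on either strand was in 45%. Of the other members, DHRS9 alone had a window with TATAAA. The table matched 9 of the 10 members with 18 promoters, 4 of which held TATAAA and 8 a GC box. These 18 are not all separate, and DHRS9 has 4 of them. The DHRS12 windows chr13:51804114-51804413 and chr13:51804113-51804412 are almost the same, and both held a GC box.

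The core of the metal response element, the motif bound by the zinc-sensing factor MTF1, was searched as TGCGCNC and as TGCACNC on both strands. TGCGCNC was in 5 of the 18 member promoters and in 20% of all promoters, and TGCACNC in 2 of the 18 and in 12.1% of all. Neither form was in the DHRS2 or the DHRS4 window. The stress-response core TGATGNAA was in 0 of the 18 and in 3.62% of all, and CACGTG was in 0 of the 18 and in 7.26% of all, both strands searched. CCAAT, searched on both strands, was in 2 of the 18 and in 34.6% of all promoters. Such matches describe letters in a window of 300 bases and are not evidence of binding.

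The stretch of 50 coding bases in which DHRS2 and DHRS4 match most is shown, with the same bases of DHRS4L2. Only stretches that align without a gap in all 3 genes were searched. Being the best match of that search, the stretch shown is more alike than the coding sequences as a whole. It is copied from the GENCODE 29 transcripts, starts at coding base 174 in DHRS2 and at coding base 162 in DHRS4 and DHRS4L2, and has capitals where the 3 genes do not all match.
DHRS2: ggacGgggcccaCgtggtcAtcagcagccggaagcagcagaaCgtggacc
DHRS4: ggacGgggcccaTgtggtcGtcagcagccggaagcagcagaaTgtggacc
DHRS4L2: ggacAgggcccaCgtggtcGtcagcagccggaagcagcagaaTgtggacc
In this stretch DHRS2 matched DHRS4 at 47 of 50 bases and DHRS4L2 matched DHRS4 at 48. Over the aligned coding sequences, DHRS2 was 73.0% identical to DHRS4 and DHRS4L2 was 97.3% identical to it. DHRS2 was 73.2% identical to DHRS4L2. The other pairs of members with a matched coding sequence were 55.3% to 63.3% identical. DHRS2 shared 0.11% of its runs of 50 bases with any other gene, whereas DHRS4 shared 48.01% of its runs, 35.36% with DHRS4L2. DHRS2 and DHRS4 shared none, so reads of this length without mismatches can tell them apart. How reads common to DHRS4 and DHRS4L2 were divided is not given in the sources used here, and the level of each is uncertain to that extent.

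DHRS2 (ENSG00000100867) had 99.57, 109.81 and 110.13 RPKM in depleted, 5.67, 6.38 and 5.59 in repleted and 4.67, 5.87 and 5.16 in full medium. RPKM are reads per kilobase of gene scaled to the library total, so levels of different genes can be set side by side per length. Every depleted library lay far above every repleted or full library, and the repleted and full libraries overlapped. The means were 106.5 ± 6.01 RPKM in depleted, 5.88 ± 0.435 in repleted and 5.23 ± 0.603 in full medium (SD, n = 3 each). The depleted mean was 20.35 times the full mean and 18.11 times the repleted mean. On the log2(RPKM + 1) scale DHRS2 differed by 4.11 in depleted against full and by 3.97 in depleted against repleted medium. The difference was 0.15 in repleted against full medium. Each has a limma SE of 0.08, which does not allow for the selection of DHRS2 on these values. In bulk RNA, more cells with the transcript and more transcript per cell cannot be told apart.

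**Figure D1:**
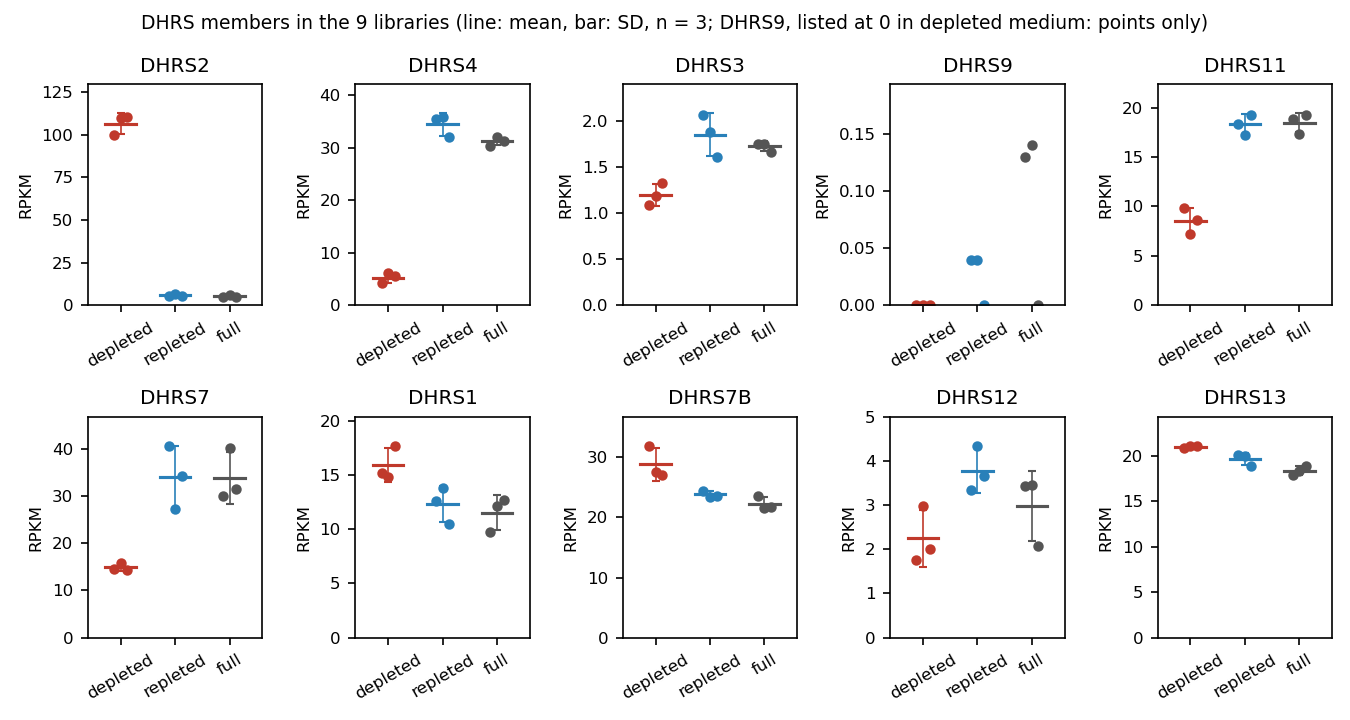
Expression of the 10 DHRS members in RPKM (vertical axis, 1 panel per gene with its own scale from 0) in depleted, repleted and full medium. Points are libraries, lines are means and bars are SD (n = 3), with points alone for DHRS9. DHRS2 lies between 99.57 and 110.13 RPKM in depleted medium and between 4.67 and 6.38 in the other media, while DHRS4 lies between 4.22 and 6.17 RPKM in depleted medium and between 30.46 and 35.82 in the others.

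Depleted against full medium asks how the cells respond to the loss of zinc, and depleted against repleted medium asks the same with the depletion step common to both. The 2 comparisons share the depleted libraries. Every log2 difference is between means of log2(RPKM + 1), a scale that shrinks the changes of genes with low levels, and adjusted p-values are from limma over all 15774 genes tested, with a threshold of 0.05. Of the 9 members other than DHRS2, 8 were tested. In depleted against full medium 3 rose and 4 fell, and 1 was not called (60.9% of the tested genes passed, 29.8% as higher and 31.2% as lower). In depleted against repleted medium 2 rose and 5 fell, and 1 was not called (60.7% of the tested genes passed, 29.5% as higher and 31.2% as lower). The median log2 difference of the 8 was -0.30 and -0.47 in these comparisons, beside medians of 0.001 and -0.01 over all genes tested. The libraries of the 2 groups did not overlap for 7 of the 8 members in depleted against full and for 8 of 8 in depleted against repleted medium, beside 67.6% and 65.2% of all genes. Most of the tested genes passed, so calls among 8 members are read against that background and say nothing particular to the family. The size and direction differed from gene to gene.

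Among the carbonyl and retinal reductases, DHRS4 (ENSG00000157326) had 4.22, 6.17 and 5.52 RPKM in depleted, 35.58, 35.82 and 32.04 in repleted and 30.46, 32.04 and 31.35 in full medium. All 3 depleted libraries were below all 6 others. The full mean was 5.90 times and the repleted mean 6.50 times the depleted mean of 5.30 ± 0.993 RPKM (SD, n = 3). DHRS4 fell by 2.37 on the log2 scale against full (SE 0.10, limma adjusted p = 1.03e-07) and by 2.50 against repleted medium (limma adjusted p = 7.28e-08). It had the widest difference among the 8 tested members in both comparisons. Its duplicate DHRS4L2 (ENSG00000187630) had 4.39 ± 0.37 RPKM in depleted, 9.37 ± 0.70 in repleted and 9.34 ± 1.40 in full medium, a fall of 0.93 against full (limma adjusted p = 5.74e-05) and 0.94 against repleted medium (limma adjusted p = 5.32e-05).

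DHRS3 (ENSG00000162496), which reduces retinal to retinol and is itself induced by retinoic acid, was low throughout. It had 1.09, 1.19 and 1.33 RPKM in depleted, 2.07, 1.89 and 1.61 in repleted and 1.76, 1.76 and 1.67 in full medium. The depleted libraries lay below the others, and the repleted and full libraries overlapped. It fell by 0.31 on the log2 scale against full (SE 0.12, limma adjusted p = 0.04) and by 0.37 against repleted medium (limma adjusted p = 0.0184). The call against full medium was lost when any 1 of the depleted or full libraries, or repleted library 2, was left out (limma adjusted p 0.0505 to 0.11). This call was also lost with only the 6 libraries compared (limma adjusted p = 0.0506), a replicate block (0.0686), median centring (0.0732) or quantile normalization (0.121). The call against repleted medium was lost without depleted library 1 (limma adjusted p = 0.058) or repleted library 1 (limma adjusted p = 0.0618), and with quantile normalization (0.0654). DHRS9 (ENSG00000073737), which oxidises retinol and hydroxysteroids, was too low to test. It was listed at 0 in all 3 depleted libraries, at 0.04, 0.04 and 0 RPKM in the repleted and at 0.13, 0.14 and 0 RPKM in the full libraries.

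Of the members that act on steroids, DHRS11 (ENSG00000108272), a reductase of steroid keto groups, had 9.83, 7.19 and 8.66 RPKM in depleted, 18.37, 17.26 and 19.28 in repleted and 18.81, 17.38 and 19.21 in full medium. Depleted libraries were well below the rest, and the other 2 media overlapped. DHRS11 fell by 1.03 against full (SE 0.10, limma adjusted p = 1.36e-05) and by 1.02 against repleted medium (limma adjusted p = 1.46e-05).

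DHRS7 (ENSG00000100612), a reductase of the endoplasmic reticulum membrane, had 14.66, 15.84 and 14.26 RPKM in depleted, 40.68, 27.23 and 34.21 in repleted and 29.96, 40.26 and 31.58 in full medium. The depleted libraries were close together and below the others, which were widely spread in both media. DHRS7 fell by 1.12 against full (SE 0.14, limma adjusted p = 0.000105) and by 1.12 against repleted medium (limma adjusted p = 0.000106). It shared 24.66% of its runs of 50 bases with PCNX4, listed as PCNXL4, which also fell, by 0.59 against full (limma adjusted p = 0.000287) and 0.71 against repleted medium (limma adjusted p = 8.15e-05). How much of either value comes from shared reads was not tested.

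DHRS1 (ENSG00000157379), another reductase of the endoplasmic reticulum, moved the other way. It had 15.20, 14.83 and 17.74 RPKM in depleted, 12.65, 13.82 and 10.53 in repleted and 9.72, 12.17 and 12.74 in full medium. The depleted libraries were above the rest by a narrow margin. DHRS1 rose by 0.44 against full (SE 0.12, limma adjusted p = 0.0113) and by 0.35 against repleted medium (limma adjusted p = 0.032). The call against repleted medium was lost without depleted library 3 (limma adjusted p = 0.112), repleted library 1 (0.0549) or repleted library 3 (0.11), and both calls were lost without the filter on low values (limma adjusted p = 0.0853 against full and 0.184 against repleted medium).

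DHRS7B (ENSG00000109016), which catalyses a step of ether lipid synthesis, had 31.98, 27.57 and 27.03 RPKM in depleted, 24.46, 23.47 and 23.56 in repleted and 23.54, 21.66 and 21.71 in full medium. All depleted libraries were above the others. It rose by 0.36 against full (SE 0.07, limma adjusted p = 0.00131) and by 0.26 against repleted medium (limma adjusted p = 0.00732).

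The remaining members have less settled substrates. DHRS13 (ENSG00000167536) had 20.84, 21.09 and 21.03 RPKM in depleted, 20.03, 19.99 and 18.90 in repleted and 17.87, 18.35 and 18.84 in full medium, with no overlap between any pair of media. It rose by 0.18 against full medium (SE 0.05, limma adjusted p = 0.00636). Its difference of 0.09 from repleted medium was not called (limma adjusted p = 0.112) but was called after median centring (limma adjusted p = 0.0247). DHRS12 (ENSG00000102796) had 1.76, 2.98 and 2.01 RPKM in depleted, 3.34, 4.35 and 3.66 in repleted and 3.43, 3.45 and 2.07 in full medium, with overlap between depleted and full libraries. It fell by 0.57 against repleted medium (limma adjusted p = 0.0236), a call lost without depleted library 1 (0.0815), depleted library 3 (0.0691) or repleted library 2 (0.0793), with no filter (0.135) and with quantile normalization (0.0756). Against full medium its difference was -0.29 (limma adjusted p = 0.203), and it was called only without full library 3 (limma adjusted p = 0.0444). Runs of 50 bases shared with other genes made up 37.67% of DHRS13 and 17.78% of DHRS12.

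**Figure D2:**
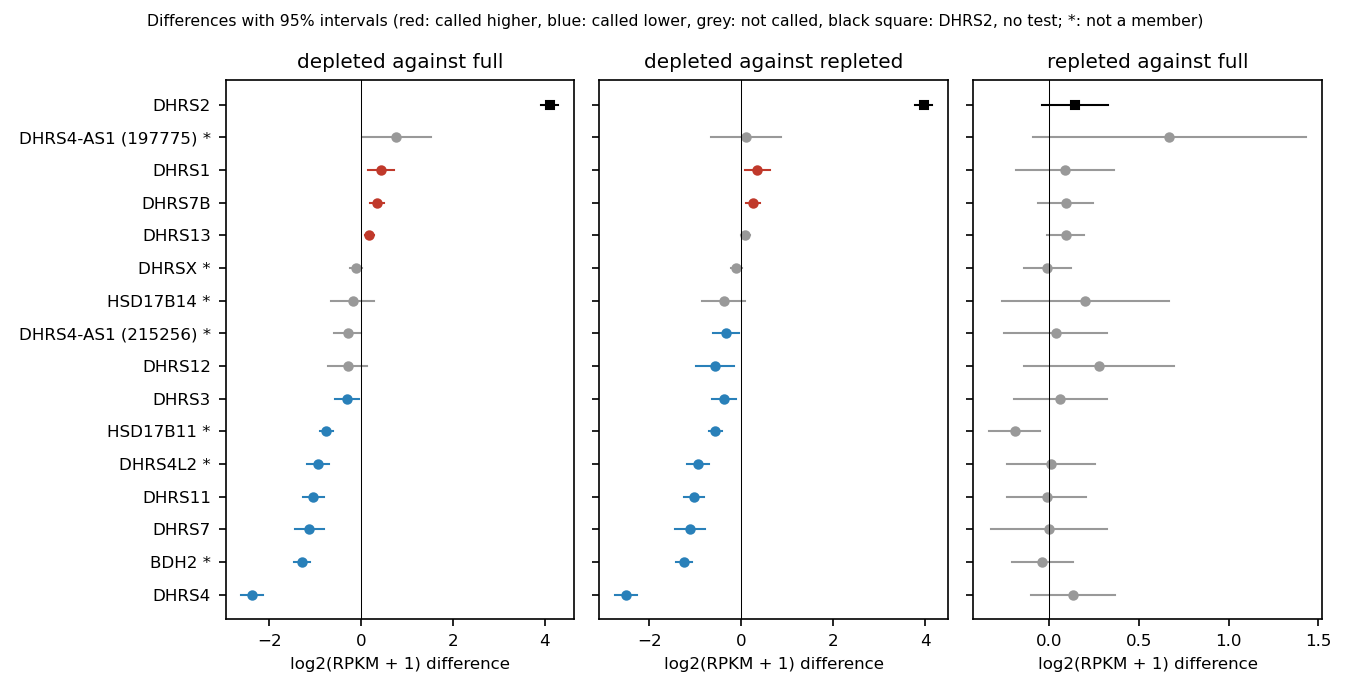
Differences on the log2(RPKM + 1) scale with 95% intervals (horizontal axis) for the DHRS members and, with a star, other genes with a present or former DHRS symbol, in 1 panel per comparison. DHRS2, a black square with no test, lies at 4.11 and 3.97 in the depleted comparisons, and DHRS4 at -2.37 and -2.50. The interval drawn for DHRS2 does not allow for its selection on these values. In repleted against full medium, on a narrower axis, no gene was called.

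Repleted against full medium asks how far adding zinc back gives the levels of untreated cells. None of the 8 tested members was called by limma (0.0317% of the tested genes passed, 5 of 15774), and 0 of the 8 had an unadjusted p below 0.05, beside 7.76% of all tested genes. Their median log2 difference was 0.09, beside -0.001 over all genes tested. DHRS4 differed by 0.14 (limma adjusted p = 0.801), DHRS7 by -0.002 (limma adjusted p = 0.999) and DHRS11 by -0.01 (limma adjusted p = 0.987). Only DHRS13 had no overlap between these libraries, beside 12.4% of all genes. A p above the threshold does not show that levels were the same.

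The order of the members by level was different without zinc. In depleted medium DHRS2 was the highest, above DHRS7B, DHRS13, the overlapping DHRS1 and DHRS7, then DHRS11, DHRS4, DHRS12, DHRS3 and DHRS9. In repleted medium DHRS4 and DHRS7 overlapped at the top, followed by DHRS7B, the overlapping DHRS13 and DHRS11, then DHRS1, DHRS2, DHRS12, DHRS3 and DHRS9. Full medium had the same order but for the overlapping pairs, with DHRS2 again at rank 7. These ranks follow in part from the choice of DHRS2.

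The summed level of the 10 members was 199.15, 206.67 and 207.71 RPKM in depleted, 162.89, 150.25 and 149.38 in repleted and 140.35, 153.08 and 144.33 in full medium. The depleted sums were the highest. Without DHRS2 the order turned, with 98.0 ± 1.41 RPKM in depleted, 148.3 ± 7.73 in repleted and 140.7 ± 5.91 in full medium (SD, n = 3 each). DHRS2 made up 52.05% of the sum in depleted, 3.82% in repleted and 3.58% in full medium, and DHRS4 made up 2.59% in depleted, 22.4% in repleted and 21.45% in full medium.

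**Figure D3:**
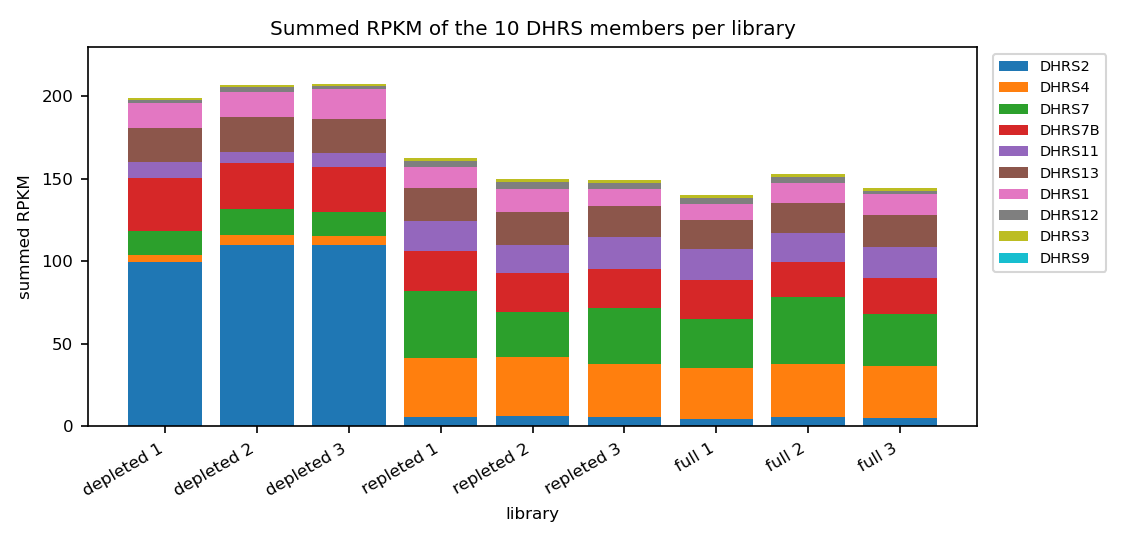
Summed RPKM of the 10 DHRS members (vertical axis, from 0) in each of the 9 libraries, with a colour for each gene. DHRS2 takes on average 52.05% of the sum in depleted, 3.82% in repleted and 3.58% in full medium.

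Other genes that carry, or once carried, a DHRS symbol were set beside the members. They have 9 rows, of which 7 were tested. Of these 0 rose and 3 fell against full medium, and 0 rose and 4 fell against repleted medium, where 31.2% of all tested genes were called lower in each comparison. The 4th is a DHRS4-AS1 row at the threshold itself (ENSG00000215256), whose call was lost under most other settings. BDH2, formerly DHRS6, a dehydrogenase of ketone bodies, had 7.40 ± 0.02 RPKM in depleted, 19.0 ± 2.22 in repleted and 19.4 ± 0.57 in full medium, a fall of 1.28 against full (limma adjusted p = 6.21e-07) and 1.24 against repleted medium (limma adjusted p = 7.69e-07). HSD17B11, formerly DHRS8, an enzyme of lipid droplets, had 6.56 ± 0.35 RPKM in depleted, 10.2 ± 0.38 in repleted and 11.7 ± 0.33 in full medium and fell by 0.75 against full (limma adjusted p = 6.16e-06) and 0.56 against repleted medium (limma adjusted p = 4.49e-05). DHRSX, needed for dolichol synthesis, differed by -0.11 from full medium (limma adjusted p = 0.119), and HSD17B14, formerly DHRS10, by -0.18 (limma adjusted p = 0.471). DHRS7C was listed at 0 in all 9 libraries.

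A wider set of short-chain dehydrogenases, in 5 lists by substrate with 43 tested genes, held genes that went either way. In depleted against full medium 11 rose, 15 fell and 17 were not called, beside 60.9% of all tested genes called. In depleted against repleted medium 10 rose, 14 fell and 19 were not called, beside 60.7% of all tested genes called. The median log2 difference was -0.10 in both comparisons.

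Of 5 retinol dehydrogenases tested, RDH11 alone was called in the depleted comparisons, beside 60.9% and 60.7% of all tested genes. It had 22.2 ± 1.39 RPKM in depleted, 45.6 ± 2.94 in repleted and 47.3 ± 1.61 in full medium and fell by 1.06 against full medium (limma adjusted p = 5.06e-07). RDH10, which oxidises retinol on the way to retinoic acid, differed by 0.11 from full medium (limma adjusted p = 0.493). Against repleted medium it differed by 0.27 (limma adjusted p = 0.09) and was called with a replicate block (0.0123) or quantile normalization (0.0481). RDH13 differed by -0.17 from full medium (limma adjusted p = 0.0984) and was called with only the 6 libraries compared (0.0467) and without repleted library 2 (0.0408). Of 12 tested genes of retinoic acid metabolism and signalling, 1 rose and 7 fell against full medium, beside 31.2% of all tested genes called lower, with a median of -0.43. CRABP2, which carries retinoic acid to its receptors, had 34.2 ± 1.77 RPKM in depleted, 85.8 ± 1.30 in repleted and 94.0 ± 2.07 in full medium and fell by 1.43 against full medium (limma adjusted p = 1.04e-08). The retinoic acid hydroxylase CYP26B1 fell by 1.12 (limma adjusted p = 3.77e-05) and the receptor RXRA by 0.51 (limma adjusted p = 0.000327).

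Among 8 tested hydroxysteroid dehydrogenases 3 rose and 1 fell against full medium. The counts of this and the following lists stand beside 29.8% of all tested genes called higher and 31.2% called lower. HSD17B7 and NSDHL, both enzymes of cholesterol synthesis, rose by 1.00 (limma adjusted p = 2.09e-06) and 0.48 (limma adjusted p = 9.74e-05), and HSD17B6 by 1.202 (limma adjusted p = 0.00127). Of 9 carbonyl and small-molecule enzymes 4 rose and 3 fell. CBR1, a cytosolic carbonyl reductase, rose by 0.35 (limma adjusted p = 8.86e-05), while its paralog CBR3 fell by 1.30 (limma adjusted p = 2.3e-06) and QDPR, which recycles tetrahydrobiopterin, by 1.16 (limma adjusted p = 8.72e-08). Of 10 fatty acid and ketone enzymes 2 rose and 5 fell, among them the peroxisomal beta-oxidation enzyme HSD17B4, which fell by 1.18 (limma adjusted p = 4.27e-06), and HSD17B8, of mitochondrial fatty acid synthesis, by 1.29 (limma adjusted p = 6.47e-07). Of 11 nucleotide-sugar and other extended forms 2 rose and 5 fell, with SDR39U1 up by 0.94 (limma adjusted p = 9.32e-07). Over the settings, the calls in the fatty acid list and in the extended list each ran from 4 to 8.

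**Figure D4:**
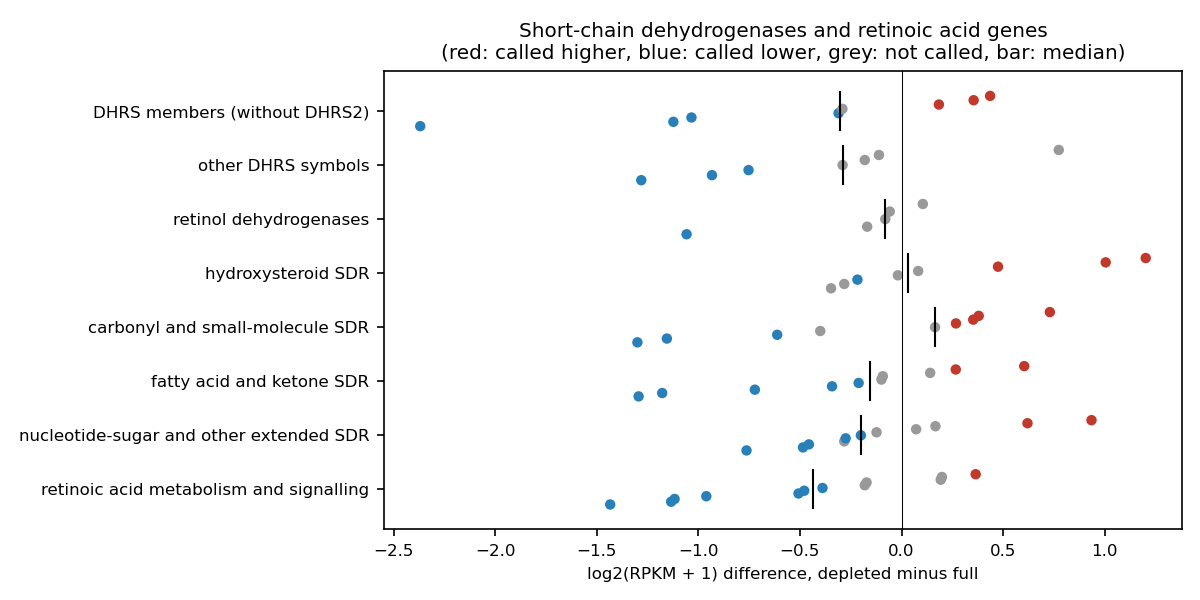
Differences on the log2(RPKM + 1) scale for depleted minus full medium (horizontal axis) of each tested gene in the DHRS members without DHRS2, the lists of other short-chain dehydrogenases and the retinoic acid genes. Dots are genes, red called higher, blue called lower and grey not called, and bars are medians. The DHRS members have a median of -0.30 and the retinoic acid genes of -0.43.

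MDM2, whose protein binds DHRS2, had 95.5 ± 4.26 RPKM in depleted, 67.7 in repleted and 69.5 in full medium on average, and rose by 0.45 against full medium (limma adjusted p = 0.000271). CDKN1A, an inhibitor of cyclin-dependent kinases, fell by 0.13 (limma adjusted p = 0.0233), a call lost with median centring (0.175), with no filter (0.087) and without depleted library 1 (0.0855), full library 2 (0.0636) or full library 3 (0.0766). Against repleted medium CDKN1A differed by 0.07, in the other direction (limma adjusted p = 0.197). MDM4, a relative of MDM2, differed by 0.36 from full medium (limma adjusted p = 0.072, but 0.0114 with quantile normalization) and rose by 0.51 against repleted medium (limma adjusted p = 0.0171).

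On chromosome 14, DHRS2, DHRS4, DHRS4L2 and DHRS1 lie in the same stretch of genes, at 0, 12, 14 and 43 gene positions from DHRS2 in the RefSeq gene order. DHRS7 is also on chromosome 14, DHRS7B, DHRS11 and DHRS13 on chromosome 17, and DHRS3, DHRS9 and DHRS12 on chromosomes 1, 2 and 13. Of the 11 genes between DHRS2 and DHRS4 none is protein-coding in the RefSeq gene table, and only DHRS4-AS1, the RNA antisense to DHRS4, was tested. It has 2 rows. The row ENSG00000197775, which the deposited table classes as protein-coding, differed by 0.77 from full (limma adjusted p = 0.0726) and 0.10 from repleted medium (limma adjusted p = 0.809). Its difference from full medium ran from 0.461 to 1.895 over the settings. It was called with a replicate block (0.037), with quantile normalization (0.049), without repleted library 1 (0.0453) and without full library 2 (0.0292). The row ENSG00000215256 differed by -0.29 from full medium (limma adjusted p = 0.0745) and by -0.33 from repleted medium at the threshold itself (limma adjusted p = 0.05), a call lost under most other settings. Whether reads were counted by strand is not given in the sources used here, so DHRS4 and its antisense RNA may share reads. Within 5 gene positions of DHRS2, 3 of 10 genes were tested. ZFHX2, a homeobox gene, fell by 0.82 against full medium (limma adjusted p = 0.00753, but 0.0507 with no filter), AP1G2, a clathrin adaptor subunit, differed by 0.33 (limma adjusted p = 0.275), and its antisense RNA by -0.005 (limma adjusted p = 0.98).

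**Figure D5:**
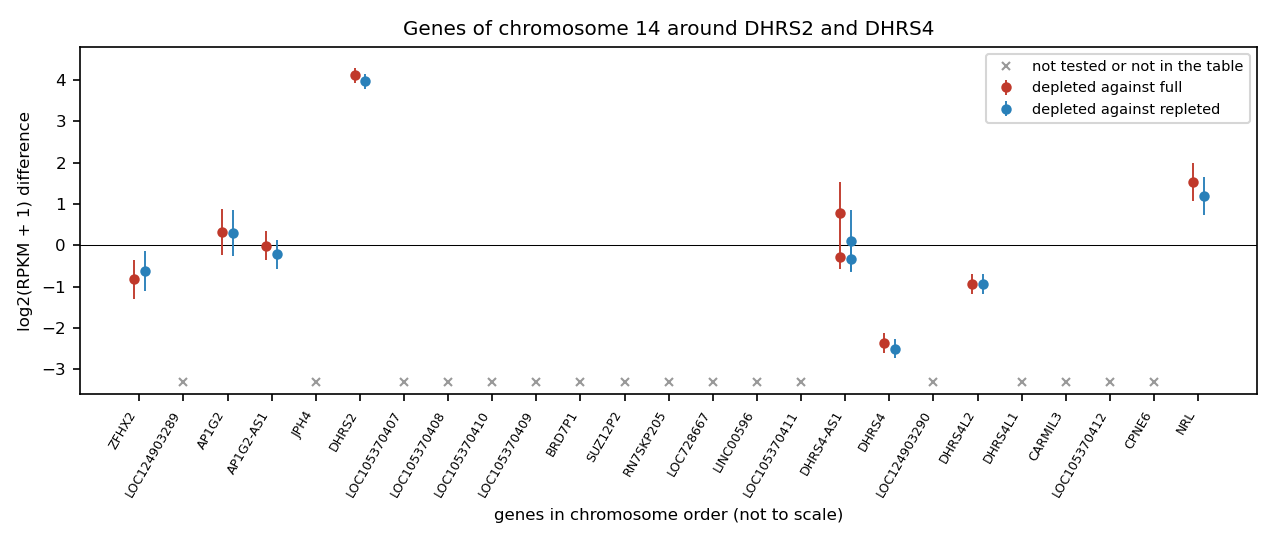
Differences on the log2(RPKM + 1) scale (vertical axis) with 95% intervals for genes in chromosome order around DHRS2 and DHRS4 (horizontal axis, not to scale), depleted against full in red and depleted against repleted medium in blue. Crosses are genes not tested or not in the table. NRL, at gene position 19 from DHRS2, rose by 1.53 against full (limma adjusted p = 0.000127) and by 1.19 against repleted medium (limma adjusted p = 0.000638). DHRS2 at 4.11 and DHRS4 at -2.37 against full medium stand 12 gene positions apart. The interval drawn for DHRS2 does not allow for its selection on these values.

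The tested genes with the profile most like that of DHRS2, by the Euclidean distance between gene-centred log2(RPKM + 1) values over the 9 libraries, were PRRG2 (0.582), CIB3 (0.658), CHAC1 (1.285), MT-TI (1.674) and a non-coding RNA (1.684). PRRG2 encodes a membrane protein with a vitamin K-dependent domain, CIB3 a calcium-binding protein, CHAC1 an enzyme that breaks down glutathione and MT-TI a mitochondrial transfer RNA. The 9 values of each gene share the same libraries, and most of the likeness is the step between depleted and other media. It was measured with the pseudocount of 1 only and depends on that scale. Over the settings, the difference from full medium ran from 4.045 to 4.326 for DHRS2. It ran from 3.747 to 5.134 for PRRG2 and from 4.214 to 7.03 for CIB3.

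Facts of the whole data set bear on all these values. The depleted libraries had a correlation across genes of 0.9356 to 0.941 with the other 6, against 0.983 to 0.9874 within groups. MT2A, a metallothionein induced by zinc, lay between 5.72 and 7.08 RPKM in depleted medium and averaged 93.5 ± 3.34 RPKM in repleted and 190.7 ± 8.9 in full medium. All 5 markers of this line (VIM, KRT8, KRT18, CDH2 and NES) were detected, with summed levels of 851.48 to 877.16 RPKM in depleted, 817.2 to 839.76 in repleted and 833.84 to 849.27 in full libraries. They went both ways against full medium, with NES lower by a log2 difference of -1.48 (limma adjusted p = 5.94e-08), KRT8 by -0.57 (7.43e-07) and KRT18 by -0.38 (8e-06), and CDH2 higher by 0.34 (0.000177) and VIM by 0.21 (2.66e-05). Of 9 markers of other cell types in the table, INS was at 0 and 5, INS among them, stayed under 1 RPKM in all 9 libraries. Their sum was 12.51 to 15.48 RPKM in depleted, 19.31 to 22.48 in repleted and 19.03 to 23.81 in full libraries, while COL1A1 differed by -1.05 (limma adjusted p = 0.000105) and HBA1 by 1.12 (limma adjusted p = 0.00136) from full medium. The part of either marker list in the members' values was not tested. The spacing of low values gave an estimated 16900000 to 23600000 reads per library, which is not a stated total. The estimate is rough. At the best-fitting depth only 56.9% to 63.9% of these low values lay within 0.1 read of a whole number.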

How the data were processed

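The deposited table holds, per gene and library, log2 of RPKM plus 1 as made by the authors, with Ensembl gene identifiers. Per the submitters' processing notes, RSEM 1.2.6, Bowtie 1.0.1, BWA 0.7.12-r1039, bedtools 2.25.0.3 and the builds hg19 and GRCh37 were used, and which step used which is not given in the sources used here. Of the values, 100% were multiples of 0.01 RPKM (tolerance 2e-04). The 20320 blank rows were dropped.

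Members and lists were chosen with earlier results of these data known. The log2 values were fitted with limma 3.58.1 in R 4.3.3, with a trend, 1 mean per group over 9 libraries, for genes of at least 1 RPKM in at least 3 libraries (15774 of 57766), with Benjamini-Hochberg adjustment over all of them and a threshold of 0.05. Means, SD and folds are of RPKM, the log having been undone. No read counts are in the table, so no intervals for counting error are given.

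Named are all members, all genes with a present or former DHRS symbol, at most 4 tested genes per further list (lowest p for depleted minus full), the 5 profiles most like DHRS2 and tested genes within 5 positions of DHRS2. PCNX4 and NRL were added after their values were seen. Some genes that this rule names are not reported here. Sequences are from RefSeq (GRCh38.p14) and GENCODE 29, a later build than that of the values, and serve only for sequence and gene order. Alternatives were a pseudocount of 0.1, no filter, a filter on the mean, only the 6 libraries compared, a replicate block, median centring, quantile normalization, a threshold of 0.01 and each library left out.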

Additional observations from a re-analysis of the deposited data

How the results depend on the processing

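Leaving out each library in turn gave 6 to 7 called members in depleted against full (8780 to 9723 of all genes), 5 to 7 in depleted against repleted (8784 to 9512 of all genes) and 0 in repleted against full medium. With a threshold of 0.01 the members called against repleted medium were 4, not 7, and all genes called were 7541, not 9574. The calls for DHRS4, DHRS7, DHRS11 and DHRS7B in both depleted comparisons held in every setting run. Deviations from the group means correlated at -0.014 to 0.073 between libraries of the same replicate number and at -0.061 to 0.042 between others. These ranges overlap, but so few libraries cannot show whether the replicate numbers pair them. With the replicate number as a block, 6 members were called against full, with DHRS3 lost (limma adjusted p = 0.0686), 7 against repleted and 0 in repleted against full medium. Over the alternative settings, this block among them, all genes called ran from 7604 to 9757 against full and from 7541 to 9558 against repleted medium. With a pseudocount of 0.1, the log2 difference of DHRS2 was 4.33 against full and 4.16 against repleted medium.

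All genes called in repleted against full medium, 5 by the chosen fit, numbered 3 with a pseudocount of 0.1, 9 with no filter, 2 with only the 6 libraries compared, 2 with the replicate block, 1 at a threshold of 0.01 and 1 to 9 with a library left out. Signs that turned were all of uncalled differences, with these ranges over the left-out libraries. In repleted against full medium only the members and the other genes with a DHRS symbol were examined for this. Against full medium they were RDH10 (-0.015 to 0.181) and the antisense RNA of AP1G2, RP11-66N24.3 (-0.073 to 0.068, and 0.041 with median centring and 0.092 with quantile normalization). Against repleted medium they were DHRS4-AS1 in row ENSG00000197775 (-0.198 to 0.322) and RDH14 (-0.085 to 0.034, and 0.042 with median centring). In repleted against full medium they were DHRS1 (-0.021 to 0.19), DHRS7 (-0.136 to 0.145), DHRS11 (-0.053 to 0.027), DHRS4L2 (-0.103 to 0.091), DHRS4-AS1 in row ENSG00000215256 (-0.035 to 0.115), DHRSX (-0.043 to 0.028), BDH2 (-0.128 to 0.01) and HSD17B14 (-0.036 to 0.379). The causes were not tested. Depth is known only as an estimate, which limits DHRS9 and other low genes.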
